A study of Homo sapiens with 12 samples.

Results

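Target genes of YAP and of serum response factor (SRF) were followed across all conditions of the series. The 10 genes CCN1, CCN2, ANKRD1, AMOTL2, AJUBA, LATS2, CRIM1, AXL, SRF and MYL9 were taken by symbol from the 63568 genes of the count table, with earlier results of these data known. All 10 passed the filter on low counts that left 25249 genes for testing. RNA was sequenced from 12 samples of MDA-MB-231, a triple negative breast cancer line of mesenchymal character, here carrying GFP, with the genotype given as WT. The cells were grown in droplets of Matrigel, a basement membrane gel, on a glass bottom. There were 6 conditions with 2 biological replicates each. C1 was untreated and taken on day 2, and C2 was untreated and taken on day 4. The other 4 conditions received Paclitaxel, a drug that stabilises microtubules, on day 2 at 0.0005, 0.005, 0.05 or 0.5 μM and were taken on day 4. The day of treatment is that of the sample labels, while the study's methods for the imaging cultures give a later day, after these samples were taken, so the length of exposure rests on the labels. All cells were freed from the gel with collagenase and dispase before lysis.

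YAP and its relative TAZ are co-activators that enter the nucleus when cells spread, pull on their surroundings or lose the restraint of the LATS kinases, and there they work through the DNA-binding TEAD factors. Serum response factor binds CArG boxes and takes its co-activation either from the MRTF proteins, which are released when actin monomers are used up by filament assembly, or from the ETS-family ternary complex factors that answer MAPK signals. The targets of both programmes overlap in genes for secreted matrix proteins, adhesion and actomyosin, and for that reason they are commonly read as a report on tension and actin state.

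The members differed in role. CCN1 (chromosome 1, 86046444 to 86050272) and CCN2 (chromosome 6, 132269316 to 132272512) encode secreted matricellular proteins of the CCN family. AXL (chromosome 19, 41725128 to 41767671) is a receptor tyrosine kinase for GAS6, and CRIM1 (chromosome 2, 36582921 to 36778278) is a transmembrane protein that binds growth factors of the BMP family. ANKRD1 (chromosome 10, 92671853 to 92680844) encodes an ankyrin repeat protein found in the nucleus and, in muscle, at the sarcomere. AMOTL2 (chromosome 3, 134074189 to 134094321), AJUBA (chromosome 14, 23440386 to 23451760) and LATS2 (chromosome 13, 21547175 to 21635725) act on the Hippo pathway itself, as a YAP-binding scaffold, a LIM protein that binds LATS kinases, and a LATS kinase. SRF (chromosome 6, 43139007 to 43149244) is the transcription factor, and MYL9 (chromosome 20, 35169900 to 35179850) is a regulatory light chain of non-muscle and smooth muscle myosin. These positions are whole-gene spans on GRCh37, and the reads counted were those in exons.

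Promoter sequence is shown for 3 members, CCN2, ANKRD1 and SRF, because they are the textbook promoters of the TEAD and CArG programmes and because their transcripts did not move alike under the drug. Each line gives the 250 bases before the RefSeq start site on GRCh38.p14, 5′ to 3′ on the strand of the gene, and the capitals mark matches to the TEAD motif GGAATG (in CCN2 and ANKRD1), the AP-1 motif TGANTCA (in ANKRD1) and the CArG box (in SRF). The CCN2 stretch is chr6:131951373-131951622 on the minus strand, the ANKRD1 stretch chr10:90921088-90921337 on the minus strand, and the SRF stretch chr6:43171019-43171268 on the plus strand.
CCN2: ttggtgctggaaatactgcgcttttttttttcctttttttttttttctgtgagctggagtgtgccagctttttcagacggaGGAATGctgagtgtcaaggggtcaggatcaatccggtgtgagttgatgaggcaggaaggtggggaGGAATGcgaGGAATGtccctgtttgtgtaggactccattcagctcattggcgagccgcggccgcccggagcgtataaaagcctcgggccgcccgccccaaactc
ANKRD1: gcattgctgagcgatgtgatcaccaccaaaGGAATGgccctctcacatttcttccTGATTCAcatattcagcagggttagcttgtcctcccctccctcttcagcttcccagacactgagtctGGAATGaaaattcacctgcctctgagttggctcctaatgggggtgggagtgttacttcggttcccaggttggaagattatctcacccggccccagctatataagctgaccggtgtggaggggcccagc
SRF: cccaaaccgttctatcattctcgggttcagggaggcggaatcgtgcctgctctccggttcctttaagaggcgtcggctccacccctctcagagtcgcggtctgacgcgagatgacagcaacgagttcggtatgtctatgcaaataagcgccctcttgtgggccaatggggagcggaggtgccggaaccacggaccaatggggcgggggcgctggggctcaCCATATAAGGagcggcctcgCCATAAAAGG

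CCN2 held 3 TEAD matches, which began at -169, -104 and -95 from the start site, and ANKRD1 held 2, which began at -220 and -128, with an AP-1 match at -195. SRF held 2 CArG boxes, at -30 and -10, directly before its start site. Over windows of 300 bases, which also take in the first 50 after the start, 7 of the 10 members had an entry, with 11 windows between them, and 6 of these 7 held a TEAD match on one strand or the other (CCN2, ANKRD1, AMOTL2, AJUBA, LATS2 and AXL). CCN1, CRIM1 and MYL9 had no entry. Of 35116 windows of this length over all genes, 14% held the TEAD motif, 7.71% the AP-1 motif and 1.29% a CArG box. These shares are per window, whereas the count of 6 is per gene, with up to 2 windows for each gene, so the units are unlike. None of the 3 motifs overlapped another match in the windows shown, and a match in letters is no measure of binding.

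Sequencing depth ran from 38380629 to 79169121 counts per sample, with a median of 65977095.5, so that even MYL9, the lowest member, had 260 to 1216 counts. The markers of the line were present, with VIM at 797 to 1370 CPM, counts scaled to a common library total, and CD44 at 237 to 388 CPM, while ESR1 reached at most 0.46 CPM and PGR was at 0 in 4 samples. ERBB2 at 26.6 to 52.4 CPM and EPCAM at 4.37 to 6.77 CPM were low but not absent. The replicates of C1 stood apart: among 12245 genes with a mean of at least 5 CPM, 41.3% differed by more than 0.5 on the log2 scale between these 2 samples, against 4.37% in C2 and 0.0572% to 4.97% at the doses.

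The members covered a wide span of levels. On a scale of CPM per kilobase of exon, the mean over the 12 samples was 484 for CCN1, 155 for ANKRD1, 140 for CCN2, 75 for AXL, 30.9 for AJUBA, 26.5 for AMOTL2, 23.4 for CRIM1, 14.2 for SRF, 9.92 for LATS2 and 3.89 for MYL9. CCN1 was therefore among the most abundant transcripts of these cells, and MYL9 was near the middle of the tested genes, at percentiles 99.9 and 59 of mean CPM. ANKRD1 and CCN2 were close in this order, and which of them was higher differed between samples, whereas CCN1 was above all others in every sample. The ratio of the highest to the lowest sample was 3.8 for CCN2, 3.51 for AXL and 3.34 for CCN1, but 1.52 for ANKRD1 and 1.4 for AJUBA.

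**Figure D1:**
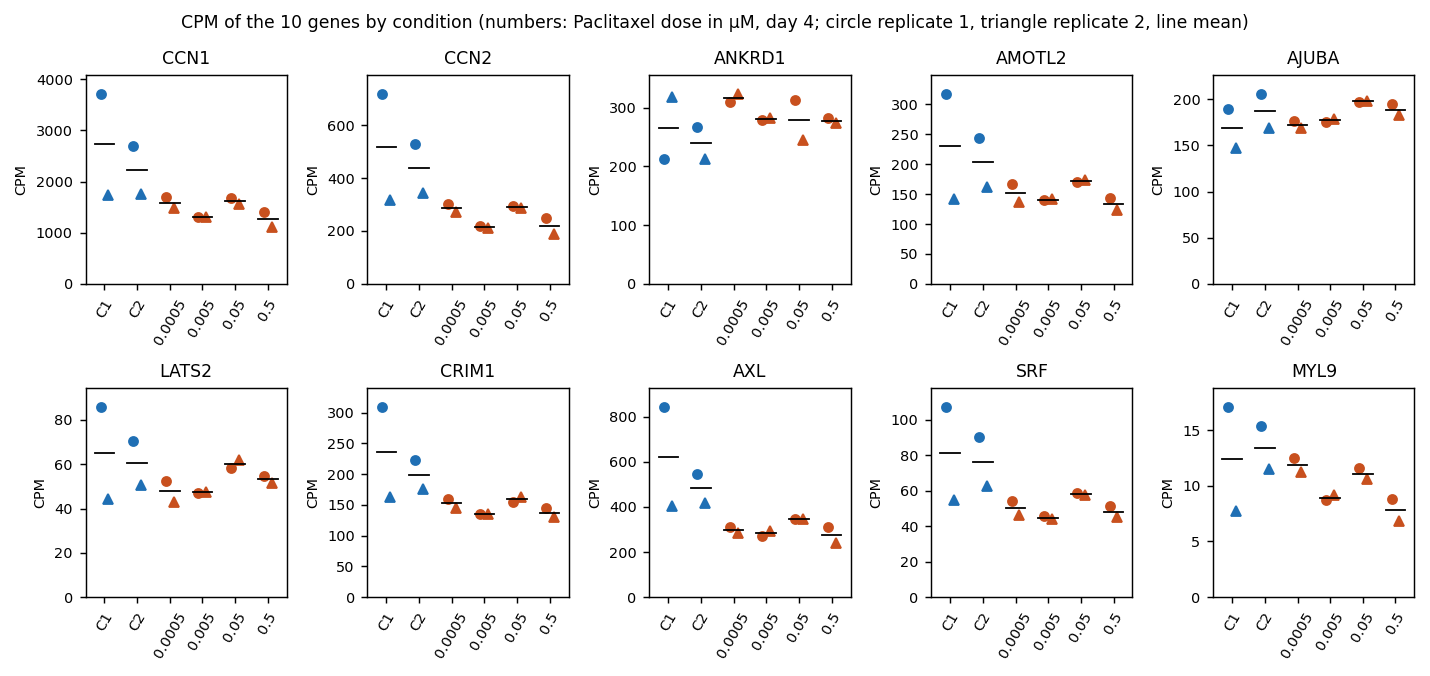
Level of each of the 10 genes in CPM (vertical axis, from 0, a scale of its own for each gene) in the 6 conditions (horizontal axis, numbers are Paclitaxel doses in μM), with circles for replicate 1, triangles for replicate 2 and a line at their mean. CCN1, CCN2 and AXL lay lower in all 8 treated samples than in any of the 4 untreated samples, C1 replicate 1 was the highest sample for 8 of the 10 genes, and ANKRD1 and AJUBA show no such drop.

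The broadest comparison asked whether the targets differed between the 8 treated and the 4 untreated samples. Transcripts of 6 of the 10 members fell under Paclitaxel and none rose: CCN2, AXL, CCN1, SRF, CRIM1 and AMOTL2. Among all tested genes 24.4% were called in this comparison, 11.3% as lower and 13.1% as higher (edgeR's quasi-likelihood test, Benjamini-Hochberg adjusted p under 0.05). The median log2 change of the members was -0.556, beside -0.002 over all genes and -0.148 over the 11193 genes with more than 8 CPM, of which 73.9% were on the lower side. In RNA from whole cultures, fewer cells expressing a gene and less of its RNA per cell cannot be told apart.

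The transcripts of both secreted CCN proteins fell. CCN2 was at 719 and 318 CPM in the 2 samples of C1 and at 528 and 345 CPM in C2, against 301 and 273 CPM at 0.0005 μM, 217 and 210 CPM at 0.005 μM, 293 and 286 CPM at 0.05 μM and 247 and 189 CPM at 0.5 μM. Every treated sample was below every untreated sample. The fit put CCN2 in treated samples at 0.528 times its untreated level, a log2 change of -0.92 (SE 0.18, 95% interval -1.31 to -0.53, Benjamini-Hochberg adjusted p = 0.00192 in edgeR). CCN1 was at 3722 and 1736 CPM in C1 and at 2697 and 1767 CPM in C2, and at 1700 and 1475, 1300 and 1313, 1679 and 1558, and 1411 and 1113 CPM at the 4 rising doses. Again no treated sample reached an untreated one, although C1 replicate 2 at 1736 CPM and the first sample of the lowest dose at 1700 CPM were close. The log2 change of CCN1 was -0.78 (SE 0.18, interval -1.16 to -0.40, edgeR adjusted p = 0.00492).

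Of the receptors and membrane proteins, AXL behaved like the CCN genes. It was at 844 and 403 CPM in C1, at 547 and 418 CPM in C2, and between 240 and 347 CPM in the 8 treated samples, with a log2 change of -0.88 (SE 0.16, interval -1.22 to -0.54, edgeR adjusted p = 0.00113), the lowest adjusted p among the 10. CRIM1 was at 309 and 163 CPM in C1 and at 223 and 176 CPM in C2, while the treated samples ran from 131 to 163 CPM with a median of 145 CPM. The groups touched only at C1 replicate 2, and 7 of 8 treated samples were below all untreated ones. CRIM1 fell by 0.57 on the log2 scale (SE 0.14, edgeR adjusted p = 0.00631).

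Across all 25249 genes, 5.77% had all treated samples below all untreated samples and 7.39% had them all above. CCN1, CCN2 and AXL were the members that did so, all 3 below.

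SRF, whose own gene is among its targets, was at 107 and 54.8 CPM in C1 and at 90.2 and 62.6 CPM in C2, against 54.1 and 46.5, 45.6 and 44.3, 58.9 and 57.8, and 51.6 and 45.1 CPM at the 4 rising doses. The treated samples were below both C2 samples, but 2 of them, those of 0.05 μM, were above C1 replicate 2. SRF fell by 0.64 on the log2 scale, to 0.641 times the untreated level (SE 0.15, interval -0.95 to -0.33, edgeR adjusted p = 0.00467). MYL9, the myosin light chain, ran from 7.76 to 17.1 CPM in untreated and from 6.84 to 12.5 CPM in treated samples, so that the groups overlapped widely. Its log2 difference was -0.39 (SE 0.18, interval -0.76 to -0.01, edgeR adjusted p = 0.127), and it was not called.

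The members that act on the Hippo pathway split. AMOTL2 was at 318 and 142 CPM in C1, at 244 and 162 CPM in C2 and between 123 and 173 CPM in treated samples, of which 4 lay below all untreated ones. It fell by 0.54 on the log2 scale (SE 0.17, edgeR adjusted p = 0.0264). This was the one call of the 6 that was lost with single samples left out. The log2 difference was -0.29 without C1 replicate 1 (edgeR adjusted p = 0.184). It stayed nearer to the full estimate, at -0.48 without C2 replicate 1 (adjusted p = 0.0841), -0.49 without replicate 2 of 0.0005 μM (adjusted p = 0.0502) and -0.43 with the day 4 samples alone (adjusted p = 0.0595). LATS2 ran from 44.4 to 85.9 CPM untreated and from 42.9 to 61.8 CPM treated, a log2 difference of -0.27 (SE 0.15, interval -0.58 to 0.03, edgeR adjusted p = 0.186). AJUBA ran from 148 to 206 CPM untreated and from 169 to 198 CPM treated, so that its treated samples all lay inside the untreated range. Its log2 difference was 0.05 (SE 0.10, interval -0.16 to 0.26, edgeR adjusted p = 0.762), an interval that leaves out a loss of the size estimated for CCN1 or CCN2.

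ANKRD1 did not share the drop of CCN2. It was at 213 and 318 CPM in C1 and 267 and 213 CPM in C2, and at 310 and 324, 278 and 283, 313 and 246, and 282 and 273 CPM at the 4 rising doses. Untreated and treated samples overlapped, with 1 treated sample above all untreated ones. The log2 difference was 0.19 (SE 0.12, interval -0.06 to 0.44, edgeR adjusted p = 0.259), so the interval of ANKRD1 lies above that of CCN2 with no overlap, although the difference between the genes itself was not tested. ANKRD1 was also the only member whose C1 replicates differed in the opposite direction to the rest.

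**Figure D2:**
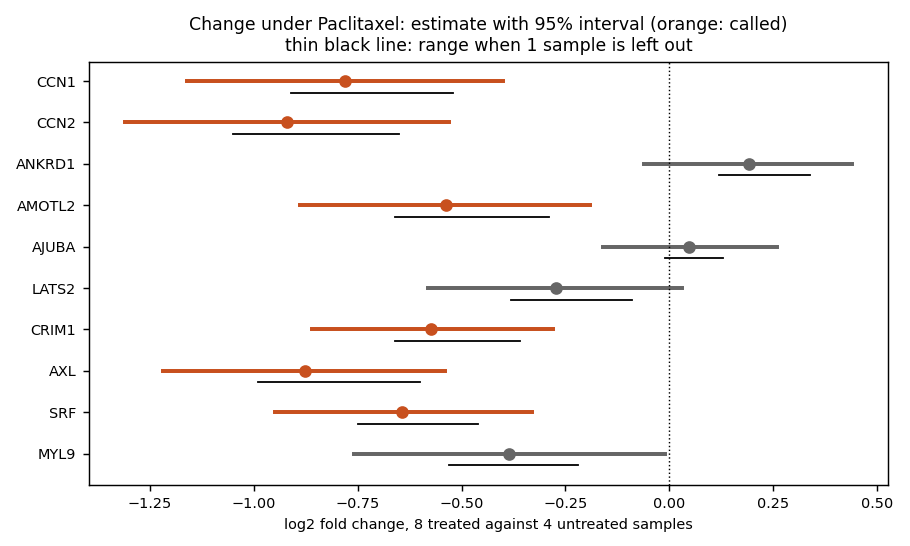
Log2 fold change of each gene in the 8 treated against the 4 untreated samples (horizontal axis), with the 95% interval as a thick bar, orange where called at an adjusted p under 0.05, and a thin black line for the range of estimates when 1 sample is left out. CCN2, AXL, CCN1, SRF, CRIM1 and AMOTL2 are called as lower, AMOTL2 with the range that comes nearest to 0 among these, and ANKRD1 and AJUBA sit at 0.19 and 0.05.

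The size of the estimates depended on C1 replicate 1. Without it the median log2 change of the members was -0.32 and 5 were called, beside 16.3% of all genes, and without C1 replicate 2 it was -0.66 and 9 were called, beside 27.5% of all genes, with LATS2 (adjusted p = 0.0388) and MYL9 (adjusted p = 0.0172) then lower and ANKRD1 (adjusted p = 0.0251) higher by edgeR's test. CCN1, CCN2, CRIM1, AXL and SRF were called in the main fit and under each of the other settings, samples left out included. With the day 4 samples alone, where the treated and untreated cultures were of one age, these 5 were called, beside 13.5% of all genes, and the median was -0.43. The comparison of all 12 samples otherwise includes a difference in age, since C1 was taken on day 2, and it treats the 4 doses as replicates.

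Each dose was next set against C2, the untreated samples of the same day. No member passed at any dose, while 2.34%, 3.28%, 8.32% and 6.32% of all tested genes did at 0.0005, 0.005, 0.05 and 0.5 μM. By edgeR's unadjusted p under 0.05 the counts of members were 2, 5, 0 and 6 of 10, against 17%, 18.7%, 23.7% and 22.9% of all genes, and DESeq2 called 0, 1, 0 and 2 members, beside 4.65%, 5.39%, 10.6% and 9.18% of all genes. The median log2 differences of the members were -0.401, -0.572, -0.299 and -0.632, with over-8-CPM genes at -0.042, -0.121, -0.109 and -0.109. They rested in part on 1 library: without C2 replicate 1 the members' medians were -0.13, -0.37, -0.07 and -0.36, and without C2 replicate 2 they were -0.62, -0.79, -0.5 and -0.88. The 4 comparisons share the 2 samples of C2, so their likeness to each other carries no weight of its own, and for 1 gene the smallest exact permutation p that 2 against 2 samples allow is 0.333.

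At the highest dose, where 6 members differed from C2 at an unadjusted p under 0.05, CCN2 had a log2 difference of -1.0 (SE 0.31, interval -1.67 to -0.32, edgeR adjusted p = 0.0792). CCN1 was at -0.82 (SE 0.31, adjusted p = 0.135), AXL at -0.81 (SE 0.28, adjusted p = 0.107), MYL9 at -0.78 (SE 0.29, adjusted p = 0.133) and SRF at -0.66 (SE 0.26, adjusted p = 0.155) in the same edgeR test. CRIM1 and AMOTL2 followed at -0.53 (SE 0.24) and -0.60 (SE 0.30), LATS2 was at -0.19 (SE 0.25), and AJUBA and ANKRD1 were at 0.01 (SE 0.15) and 0.21 (SE 0.20). MYL9 was thus among the larger differences here, its 2 samples at 8.80 and 6.84 CPM both lying below those of C2 at 15.4 and 11.5 CPM.

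At the other 3 doses CCN1, CCN2, AXL, SRF, CRIM1, AMOTL2, MYL9 and LATS2 were on the lower side, without passing. CCN2 differed from C2 by -0.60 at 0.0005 μM, -1.03 at 0.005 μM and -0.59 at 0.05 μM, with standard errors of 0.31 each, and CCN1 by -0.49, -0.77 and -0.46. AXL differed by -0.69, -0.77 and -0.48, SRF by -0.60, -0.77 and -0.39, CRIM1 by -0.38, -0.56 and -0.32 and AMOTL2 by -0.42, -0.53 and -0.25. For CCN1, CCN2, AXL, SRF, CRIM1 and AMOTL2 the estimates at 0.005 and 0.5 μM were further from 0 than those at 0.0005 and 0.05 μM, so the estimates did not follow the order of doses. Their size depended on the C2 library used: without C2 replicate 1, CCN2 was at -0.26, -0.69 and -0.25 at the 3 lower doses and -0.66 at 0.5 μM, CCN1 at -0.15, -0.44, -0.13 and -0.49, AXL at -0.48, -0.56, -0.27 and -0.6, SRF at -0.31, -0.48, -0.1 and -0.37, CRIM1 at -0.2, -0.38, -0.14 and -0.35, and AMOTL2 at -0.1, -0.21, 0.08 and -0.28. ANKRD1 was on the higher side at every dose, by 0.40 (SE 0.20, adjusted p = 0.328 by edgeR), 0.22, 0.22 and 0.21.

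Both samples lay below both C2 samples at all 4 doses for CCN1, CCN2, CRIM1, AXL and SRF, at 0.005 and 0.5 μM for AMOTL2 and MYL9, and at 0.005 μM alone for LATS2. ANKRD1 lay above C2 at 0.0005, 0.005 and 0.5 μM, and AJUBA overlapped at every dose. A separation of this kind was common, since 25.9%, 29.3%, 26.9% and 27.3% of all genes lay below C2 at the 4 doses and 27.1%, 32.9%, 26.1% and 31.7% above.

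The calls at single doses depended on how the spread was estimated, because the 6 conditions shared 1 estimate and the C1 replicates were far apart. Without C1 replicate 1 the calls were 3, 7, 2 and 7 members at the 4 rising doses, beside 9.92%, 13%, 18.9% and 19.5% of all genes in the same fits, and without C1 replicate 2 they were again 3, 7, 2 and 7, beside 10.2%, 12.5%, 19% and 19.9%. At 0.05 μM the members' share was thus near that of all genes. Either omission leaves C1 with 1 sample, which then adds nothing to the spread. Fitted on the 4 samples of each comparison alone, 4, 6, 1 and 7 members were called, all of them lower, beside 11.6%, 11.8%, 13% and 11.6% of all genes. These were AMOTL2, AXL, CCN1, CCN2, CRIM1, MYL9 and SRF at 0.5 μM, and CCN2 alone at 0.05 μM, where the share was below that of all genes.

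**Figure D3:**
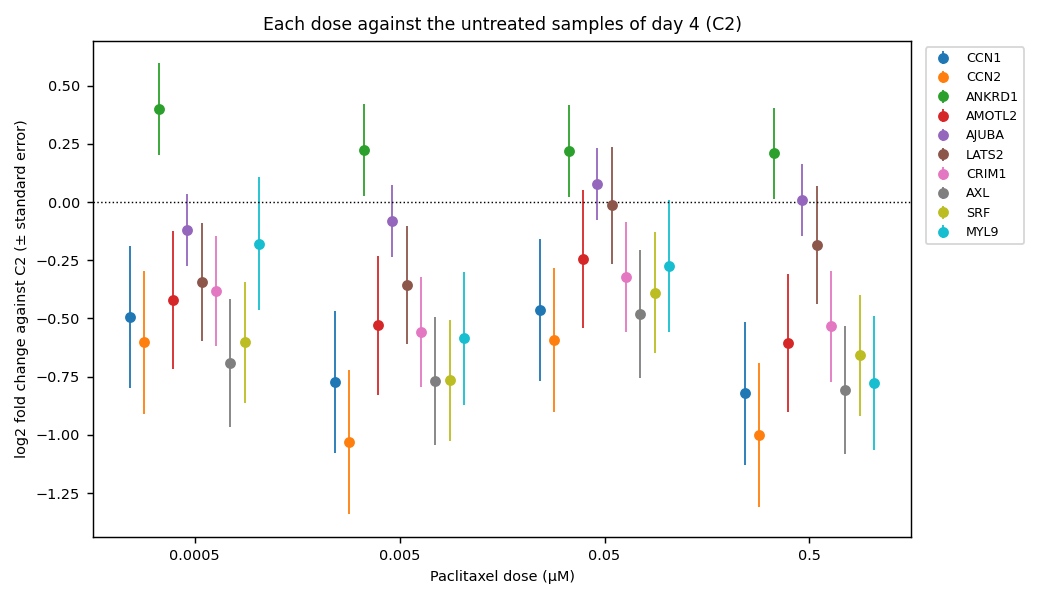
Log2 fold change of the 10 genes against C2 (vertical axis) at the 4 Paclitaxel doses (horizontal axis, in μM), with bars for the standard error. The points of CCN2 move from -0.60 to -1.03, -0.59 and -1.0 along the doses, none of the points passed the adjusted threshold, and ANKRD1 is above 0 at each dose.

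Within the 8 treated samples no member was called for a slope on the logarithm of dose, where 3.06% of all genes were (edgeR, adjusted p under 0.05), and 1 had an unadjusted p under 0.05, as did 18.3% of all genes. That gene was MYL9, at -0.15 on the log2 scale per 10-fold dose (SE 0.06, edgeR adjusted p = 0.206), while LATS2 had the opposite sign at 0.08 (SE 0.04, adjusted p = 0.346). The members' median slope was -0.023, beside 0.006 over all genes. Nor did any member pass when the 3 higher doses, which the study's imaging of cell position sets apart, were set against the lowest dose, where 0.293% of all genes passed by edgeR's test and no member had an unadjusted p under 0.05, while 15.8% of all genes did. MYL9 had a difference of -0.37 there (SE 0.23, adjusted p = 0.45), and the median of the members was -0.065.

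Time in culture without the drug was compared through C2 and C1. No member was called by edgeR's test and none had an unadjusted p under 0.05, while 0.325% of all genes were called and 10% had an unadjusted p under 0.05, and DESeq2 called no member either. The log2 difference of C2 from C1 was -0.29 for CCN1 (SE 0.30), -0.25 for CCN2 (SE 0.31), -0.37 for AXL (SE 0.28) and -0.09 for SRF (SE 0.26), with a median of -0.163 over the members. The direction hung on single samples, and the median was 0.05 without C2 replicate 2. Without C1 replicate 1 the median was 0.41 and MYL9 was called as higher on day 4, and without C1 replicate 2 it was -0.53 and AXL and CRIM1 were called as lower. In these fits 11% and 7.51% of all genes were called, so that the count of 1 member in the first was no more than the share over all genes.

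The replicates differed for these genes mainly in the untreated cultures. In C1 replicate 1 exceeded replicate 2 by 1.18 on the log2 scale for CCN2, 1.16 for AMOTL2, 1.14 for MYL9, 1.1 for CCN1, 1.07 for AXL, 0.97 for SRF, 0.95 for LATS2, 0.93 for CRIM1 and 0.36 for AJUBA, whereas ANKRD1 was at -0.58. In C2 replicate 1 was higher for all 10, by 0.29 for AJUBA to 0.62 for CCN2, and 4 members differed by more than 0.5, beside 4.37% of all genes with at least 5 CPM. At the 4 doses no member differed by that much. The count of 9 members past 0.5 in C1 stands beside 41.3% of all genes with at least 5 CPM in the same pair.

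**Figure D4:**
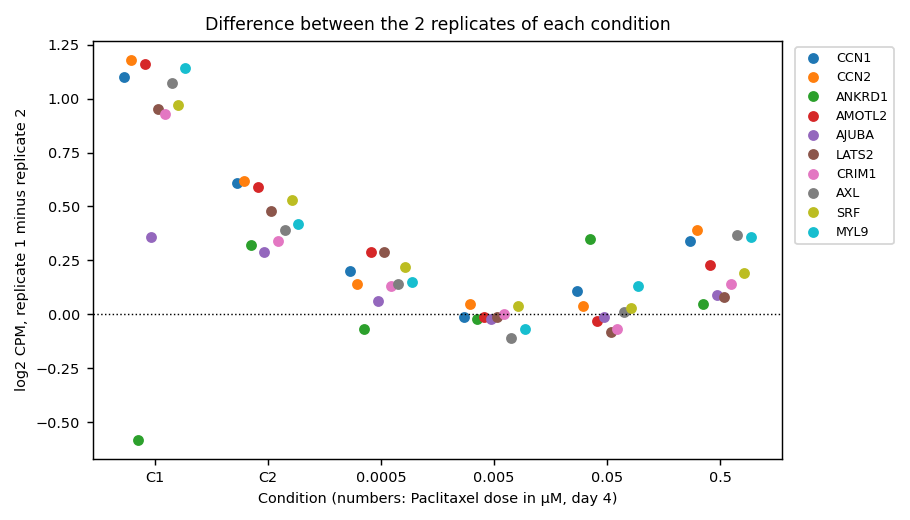
Difference in log2 CPM between replicate 1 and replicate 2 (vertical axis) for each of the 10 genes in the 6 conditions (horizontal axis, numbers are Paclitaxel doses in μM). In C1 the points lie between 0.36 and 1.18 except ANKRD1 at -0.58, in C2 all are above 0, and at the 4 doses they stay within 0.5 of 0.

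The transcripts of the co-activators and DNA partners were read in the same comparison. YAP1 fell by 0.30 on the log2 scale in treated against untreated samples (SE 0.10, edgeR adjusted p = 0.0408) and WWTR1, which encodes TAZ, fell by 0.42 (SE 0.13, adjusted p = 0.0243). TEAD1 at -0.28 (adjusted p = 0.0642) and TEAD2 at -0.30 (adjusted p = 0.0547) did not pass edgeR's test, and TEAD3 and TEAD4 were at 0.05 and 0.01. Of the actin-regulated co-activators of SRF, MRTFB fell by 0.53 (SE 0.12, edgeR adjusted p = 0.00389) while MRTFA was at -0.13 (adjusted p = 0.647). The ternary complex factors ELK3 and ELK4 fell by 0.50 and 0.41 (edgeR adjusted p = 0.00965 and 0.00473). Transcript levels of these regulators give no measure of where their proteins were.

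Other genes of the same programmes were counted from lists, whose members were chosen with earlier results of these data known, and their counts stand beside 11.3% of all genes called as lower and 13.1% as higher in treated samples. Of 22 other YAP and TAZ targets, 6 were called as lower and 2 as higher in treated samples, with a median of -0.261. PTPN14, a phosphatase that restrains YAP, fell by 0.59 (SE 0.15) and EDN1, the endothelin ligand, by 0.48 (SE 0.11), but GADD45A, a growth arrest gene also under p53, rose by 1.11 (SE 0.13). In the single comparison of 0.5 μM with C2, GADD45A had means of 64.9 and 36.3 CPM, a log2 difference of 0.84. Of 27 Hippo kinases, scaffolds and TEAD partners, 6 were lower and 1 higher, with a median of -0.159. These lists overlap: PTPN14, called as lower, and TEAD4 are in both, and YAP1 and WWTR1 are among the 6. MOB1A, the adaptor of the LATS kinases, fell by 0.46 (SE 0.10).

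The cytoskeletal targets of SRF and MRTF were the longest of these lists. Of 28 tested, 14 were called as lower and 1 as higher, with a median of -0.378. FHL1, a LIM protein, fell by 1.28 (SE 0.12), VCL, which encodes the adhesion protein vinculin, fell by 0.60 (SE 0.10), and PDLIM5 by 0.58 (SE 0.11). In the single comparison of 0.5 μM with C2, FHL1 had means of 8.92 and 24.6 CPM, a log2 difference of -1.46. The gene that rose was TAGLN, which encodes transgelin, at 0.49, named here after its value was seen, and ACTA2 and CNN1, also smooth muscle genes, were at 0.17 and 0.83 without passing. At 0.5 μM against C2, where no member was called, 6 genes of this list were called as lower by edgeR's test, beside 1.96% of all genes, among them FHL1 at -1.46 (adjusted p = 0.00464), PDLIM5 at -0.69 (adjusted p = 0.0269) and VCL at -0.65 (adjusted p = 0.0408).

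Of 5 tested SRF cofactors 3 were lower, with a median of -0.412. Among 14 tested paralogs of the members 2 were lower and 2 higher, with a median of -0.105, and these counts are near the share over all genes in both directions. As single values, AMOTL1, the relative of AMOTL2, fell by 0.53 (SE 0.13) and TYRO3, the relative of AXL, by 0.56 (SE 0.15), whereas CCN3 rose by 0.33 (SE 0.11), against the direction of CCN1 and CCN2.

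The immediate early genes, many of which are also under SRF through the ternary complex factors, went both ways. Of 20, 7 were called as lower and 4 as higher in treated samples, with a median of -0.171. NR4A1 fell by 2.09 (SE 0.20), FOSB fell by 2.00 (SE 0.33) and KLF2 fell by 1.30 (SE 0.23), while EGR1 and EGR2, named after their values were seen, rose by 1.41 and 1.15. Such genes are also induced when cells are handled, so their level was set beside that of the members in each sample. Their median deviation from the mean of the 12 samples was 0.16 and -0.35 in the samples of C1 and 0.34 and 0.19 in C2, and at the 4 rising doses it was 0.30 and 0.13, -0.22 and -0.23, 0.18 and 0.17, and -0.19 and -0.24. The members were at 0.90 and -0.04 in C1, 0.55 and 0.08 in C2, and -0.03 and -0.19, -0.28 and -0.26, 0.03 and -0.01, and -0.19 and -0.39 at the doses, so that the immediate early genes were lower in both samples of 0.005 and 0.5 μM than in those of 0.0005 and 0.05 μM. By these medians the levels did not go together throughout. C1 replicate 2 was the lowest of the 12 samples for the immediate early genes but not for the members. At 0.0005 μM the immediate early genes of replicate 1 were above their mean and the members were not. By summed CPM, however, replicate 2 of 0.5 μM was the lowest for the immediate early genes, at 2534 against 2596 CPM in C1 replicate 2. That sample of 0.5 μM was also the lowest for the members, at -0.39. The part of handling in the members' differences was not tested.

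**Figure D5:**
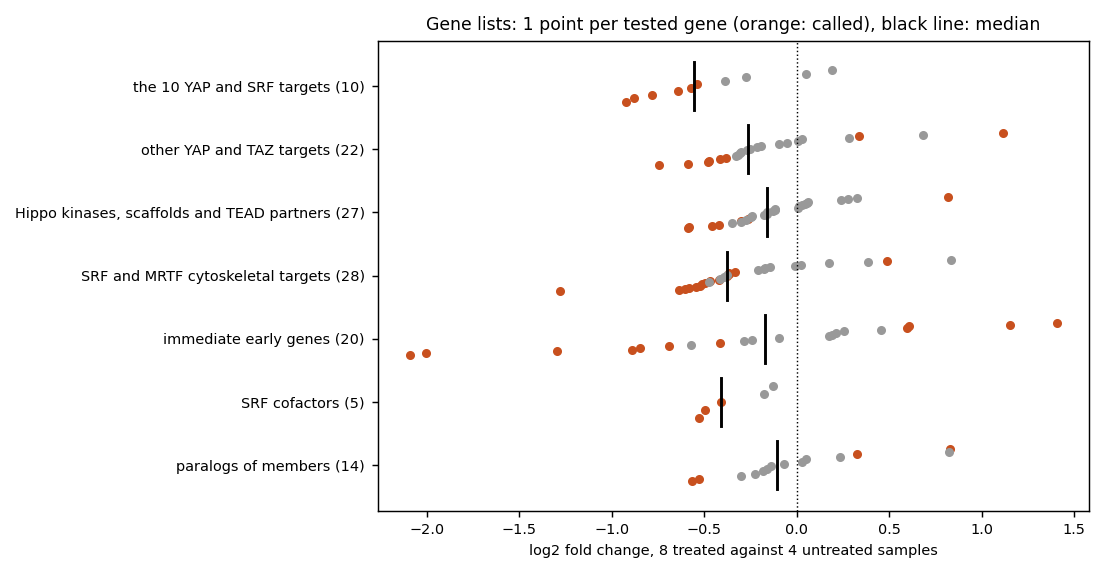
Log2 fold change in the 8 treated against the 4 untreated samples (horizontal axis) for every tested gene of the 10 YAP and SRF targets and of 6 lists of related genes (rows), orange where called, with a black line at the median of each row. The 10 targets have the lowest median, -0.556, followed by the SRF cofactors at -0.412 and the cytoskeletal targets at -0.378, and the immediate early genes spread the furthest to both sides.

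Fibroblasts, which the study grew with these cells in other experiments, express many of the same targets, so their markers were read in each condition. The summed level of 7 fibroblast markers was 9.22 to 17 CPM in C1, 12 to 15.9 in C2, 12.9 to 16.4 at 0.0005 μM, 16.4 to 16.6 at 0.005 μM, 19.1 to 21.6 at 0.05 μM and 14.7 to 15.7 at 0.5 μM. COL1A1 at 4.8 to 9.85 CPM and PDGFRB at 3.61 to 9.15 CPM were the highest of the 7 and were present in every sample. COL1A2 reached at most 0.13 CPM and was at 0 in 4 samples, and DCN reached at most 0.153 CPM and was at 0 in 2. Of the 5 markers tested, COL3A1 and PDGFRA were called as higher in treated samples, at no more than 1.52 and 2.16 CPM, 4 of the 5 were on the higher side and 1 on the lower, and their median log2 difference was 1.11. The part of such cells in the members' differences was not tested.

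The genes whose course over the 12 samples was nearest to that of a member were found by the root mean square difference of centred log2 CPM among 11090 genes. The nearest to CCN1 were DAG1, which encodes dystroglycan, at 0.065 and CCN2 at 0.088, and those to CCN2 were CCN1 at 0.088 and SEMA6B, a semaphorin, at 0.106. For SRF they were DNMBP at 0.071 and CCND1, the gene of cyclin D1, at 0.073, and for ANKRD1 ZNF627 at 0.071 and TRIP4 at 0.082. The standard deviation of the members over the samples was 0.458 for CCN1, 0.53 for CCN2, 0.383 for SRF and 0.197 for ANKRD1. CCN1 and CCN2 were thus in each other's nearest pair, and no other member appeared among these 8 places.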

How the data were processed

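The 12 samples were sequenced as paired reads from total RNA. The authors trimmed reads with Trimmomatic 0.39, checked them with FastQC 0.11.9, aligned them to GRCh37 with STAR 2.7.5, and assigned uniquely mapped reads to exons with Rsubread. The deposited values are these raw counts per gene, neither normalized nor pooled, and the 12 single-sample columns were identical to the table of the series. The strand setting of the counting is not given in the sources used here. Genes that overlap a member on the annotation held at most 0.25% of its counts.

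The members and lists were chosen with earlier results of these data known. All 10 members were named in each comparison. From each list up to 3 tested genes with at least 5 CPM and the lowest p in treated against untreated samples were named, with YAP1, WWTR1, the TEAD genes and the MRTF genes always, and for CCN1, CCN2, ANKRD1 and SRF the 2 genes most alike. The genes most alike to MYL9 and 1 further list are not reported here. Counts were scaled by TMM, filtered by filterByExpr with the 6 conditions and tested two-sided with edgeR 4.0.16 (quasi-likelihood, robust) in R 4.3.3, with Benjamini-Hochberg adjustment over 25249 genes. The 6-condition fit had 6 residual degrees of freedom and a common biological coefficient of variation of 15.6%. Treated against untreated samples and the dose slope were fitted separately. A standard error is the absolute log2 change divided by the square root of F, and intervals cover 95%. CPM were computed on TMM library sizes, with a prior count of 2 for log2 values. Alternatives were DESeq2 1.42.0, other scaling, filters and spread, GC and length offsets, a replicate block and each sample left out. On simulated counts with 25249 genes, 70% of genes changed by 1 on the log2 scale were recovered at 0.5 μM against C2 and 100% in treated against untreated samples. These counts were drawn with a coefficient of variation of 15.6% for every gene and condition, without the wider gap between the C1 replicates. The members' pooled replicate standard deviation ran from 0.137 for AJUBA to 0.402 for CCN2 on the log2 scale. The recovered shares therefore do not give the power for the members. Columns of no sample numbered 0. Counting error is small at this depth, and the 2 replicates per condition limit the precision. The replicates of each condition differed beyond sampling noise, so none was counted as a duplicate.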

Additional observations from a re-analysis of the deposited data

How the results depend on the processing

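In treated against untreated samples, the count of members called was 6 in the main fit, 5 to 6 under the other planned settings and 5 to 9 with 1 sample left out. Against C2, where the count was 0 at each dose, it became 3, 4, 1 and 7 at the 4 rising doses with no filter on low counts (beside 3.03%, 3.9%, 5.65% and 5.74% of all genes) and 4, 6, 1 and 7 with the 4 samples of each comparison alone (11.6%, 11.8%, 13% and 11.6%). With offsets for GC content and length it became 1, 3, 0 and 4 (5.06%, 6.32%, 12.4% and 11%), and with DESeq2 0, 1, 0 and 2 (4.65%, 5.39%, 10.6% and 9.18%). With 1 sample left out it ran from 0 to 3, 0 to 7, 0 to 2 and 0 to 7, and from 0 to 2 for C2 against C1. These rises came without C1 replicate 1 or 2. Against C2 the estimates of the doses do not use C1, which enters through the shared spread, while in C2 against C1 the estimates themselves moved (median 0.41 and -0.53), and for the other settings the cause was not tested. Whether the replicate numbers paired the samples was not settled, and the main fit did not use them. The correlation of replicate differences ran from -0.6 to 0.682 over 15 pairs of conditions, with 8 over 0.1. With the replicate number as a block, 1 member (CCN2) was called at 0.005 μM and 1 (CCN2) at 0.5 μM (beside 3.55% and 7.15% of all genes), and the other counts did not move. The dose slope and the 3 higher doses against the lowest gave 0 under each setting run.

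Directions turned for AJUBA in treated against untreated samples (-0.02 with day 4 alone, -0.01 to 0.13 with 1 sample left out) and at 0.5 μM (0 with DESeq2 and with RLE scaling, -0.13 to 0.16 with 1 left out). With 1 sample left out they also turned for LATS2 at 0.5 μM (-0.41 to 0.07) and AMOTL2 at 0.05 μM (-0.51 to 0.08). In C2 against C1, where single-gene ranges were kept for 4 members only, they turned for all 4. These were CCN1 (-0.7 to 0.36), CCN2 (-0.68 to 0.46), AXL (-0.77 to 0.26) and SRF (-0.45 to 0.48). For AJUBA, LATS2 and MYL9 the ranges against C2 were kept at 0.5 μM alone. The list of turned directions is therefore not complete. The number of genes called over the whole table at 0.5 μM ran from 128 without C2 replicate 1 to 5033 without C1 replicate 2.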

Other observations

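The ratio of CCN2 to ANKRD1, chosen after the values of both genes were seen and given with no test, was 3.38 and 1.0 in the samples of C1 and 1.98 and 1.61 in C2, in CPM over CPM. At the 4 rising doses it was 0.973 and 0.844, 0.781 and 0.743, 0.937 and 1.16, and 0.877 and 0.692. The 2 samples of C2 were above all 8 treated samples, while C1 replicate 2 lay among the treated samples.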
